A study of Mus musculus with 6 samples.

Results

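The interferon-induced genes and interferon regulatory factors (IRFs) of mouse kidney were followed by symbol: the IRFs, the Ifit, Ifitm, Ifi, Oas, Oasl, Gbp and Isg families, and Rsad2, Usp18, Iigp1, Irgm1, Irgm2, Igtp, Xaf1, Bst2 and Eif2ak2. The rule found 77 of the 22183 genes in the table, and 67 of them passed the filter on low counts among 14432 genes tested. Kidney messenger RNA was sequenced from mice given a plasmid for the Wnt ligand Wnt1 (labelled as overexpressing the Wnt1 gene, 3 libraries) and from mice given the empty vector pcDNA3 (labelled control, 3 libraries). The labels name 1 batch and give no strain, sex, age, injury procedure or time after the plasmid, and they do not state whether each library is a separate mouse, so p-values describe the spread between these libraries, which may be technical. Per its title, the series concerns how acute injury of the kidney progresses to chronic disease, and the comparison asks which transcripts change when Wnt1 is delivered.

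Interferons are secreted signals that put cells into an antiviral and inflammatory state. Type I interferons act through the receptor IFNAR and a complex of STAT proteins and IRF9 that binds the interferon-stimulated response element in promoters, and this route drives genes such as Isg15, the Ifit genes and the oligoadenylate synthetases. Interferon gamma acts through IFNGR and a different promoter element, the gamma-activated site, and it induces Irf1 and the large GTPases of the guanylate-binding and immunity-related families. The routes overlap and many genes answer to both, so the split used here into type I-induced and gamma-induced members follows textbook usage and is not a measurement. In kidney, both resident cells and leukocytes can express these genes.

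The promoters of 9 members are shown because they carry, or lack, the elements that define these routes, in genes that rose and in genes that were not called. Each line gives the 150 bases before the RefSeq start in GRCm38.p6, written 5′ to 3′ along the gene's own strand. Capitals mark the core of the response element, searched on both strands as 2 copies of GAAA with any 2 bases between them, or the core of the gamma-activated site, searched as TTC and GAA with any 3 bases between them, which reads the same on both strands. Type I-induced Isg15 (chr4:156200819-156200968, minus strand), Ifit1 (chr19:34640739-34640888, plus strand), Oas1a (chr5:120907526-120907675, minus strand) and Rsad2 (chr12:26456453-26456602, minus strand) come first. Gamma-induced Gbp2 (chr3:142620513-142620662, plus strand), Igtp (chr11:58199406-58199555, plus strand), Irgm1 (chr11:48871421-48871570, minus strand) and Irf1 (chr11:53769864-53770013, plus strand, the upstream of 2 listed starts) follow. The Irf1 start was taken from those that held a match, so its match was a condition of the choice. Irf7 (chr7:141266425-141266574, minus strand), the type I-induced regulator, holds neither sequence.
Isg15: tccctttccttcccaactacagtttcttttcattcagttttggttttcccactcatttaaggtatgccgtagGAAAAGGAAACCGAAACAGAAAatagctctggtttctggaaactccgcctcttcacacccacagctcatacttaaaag
Ifit1: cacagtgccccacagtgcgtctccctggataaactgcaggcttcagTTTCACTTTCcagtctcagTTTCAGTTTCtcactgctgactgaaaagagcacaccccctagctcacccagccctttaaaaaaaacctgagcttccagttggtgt
Oas1a: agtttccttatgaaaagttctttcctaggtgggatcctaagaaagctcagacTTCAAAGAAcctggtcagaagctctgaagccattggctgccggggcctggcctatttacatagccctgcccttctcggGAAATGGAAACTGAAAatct
Rsad2: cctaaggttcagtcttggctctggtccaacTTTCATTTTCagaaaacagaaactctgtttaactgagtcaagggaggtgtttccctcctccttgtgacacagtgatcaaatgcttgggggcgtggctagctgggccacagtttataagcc
Gbp2: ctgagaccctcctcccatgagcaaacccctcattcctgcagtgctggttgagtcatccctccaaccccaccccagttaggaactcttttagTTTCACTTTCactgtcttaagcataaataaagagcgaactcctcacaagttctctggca
Igtp: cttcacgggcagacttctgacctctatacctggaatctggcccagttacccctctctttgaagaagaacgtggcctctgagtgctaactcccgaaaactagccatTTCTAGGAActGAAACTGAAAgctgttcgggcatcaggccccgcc
Irgm1: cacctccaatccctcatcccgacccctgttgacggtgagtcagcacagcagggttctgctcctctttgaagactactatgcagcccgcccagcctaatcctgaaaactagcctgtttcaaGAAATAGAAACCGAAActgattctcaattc
Irf1: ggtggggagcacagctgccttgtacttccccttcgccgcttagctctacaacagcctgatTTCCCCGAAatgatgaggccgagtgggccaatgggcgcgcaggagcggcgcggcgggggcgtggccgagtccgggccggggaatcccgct
Irf7: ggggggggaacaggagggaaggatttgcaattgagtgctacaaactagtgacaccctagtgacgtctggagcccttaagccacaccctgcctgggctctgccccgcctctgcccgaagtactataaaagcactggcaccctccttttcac
In Isg15 the response element core occurred 3 times in an overlapping run that began 78, 72 and 66 bases before the start. Ifit1 held it 2 times, 104 and 85 bases before the start, Irgm1 2 times, 30 and 24 bases before it, and Rsad2 once, 120 bases before it. In Oas1a it occurred 2 times, 20 and 14 bases before the start, beside the gamma-activated site core 98 bases before it. Gbp2 held the response element core once, 59 bases before the start. Igtp held the gamma-activated site core 45 bases and the response element core 34 bases before the start, and Irf1 held the gamma-activated site core alone, 90 bases before it.

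With the Wnt1 plasmid, most of these transcripts were higher. Of the 67 tested members, 47 rose and 2 fell at an edgeR adjusted p under 0.05, against 22.4% of all tested genes higher and 18.7% lower. The median log2 fold change was 1.29 over the tested members and 0.05 over all tested genes. The libraries of the groups did not overlap for 50 of the 67, where 53.5% of all tested genes did not overlap either. Groups that are apart, given below for single genes, were thus common among all tested genes. The 10 members below the filter were Gbp2b, Ifi202b, Ifi214, Ifi44l, Ifitm5, Ifitm7, Oas1d, Oas1e, Oas1f and Oas1h, with at most 12 reads in any library. A further 5 (Gbp8, Ifi205, Ifi209, Ifi27l2b and Ifitm6) passed through the Wnt1 libraries alone and so had to differ, and the 62 others held 42 higher, 2 lower and a median of 1.24. Mx1 and Mx2 were also sought by symbol, but neither was among the members found, so they were not analysed here.

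**Figure D1:**
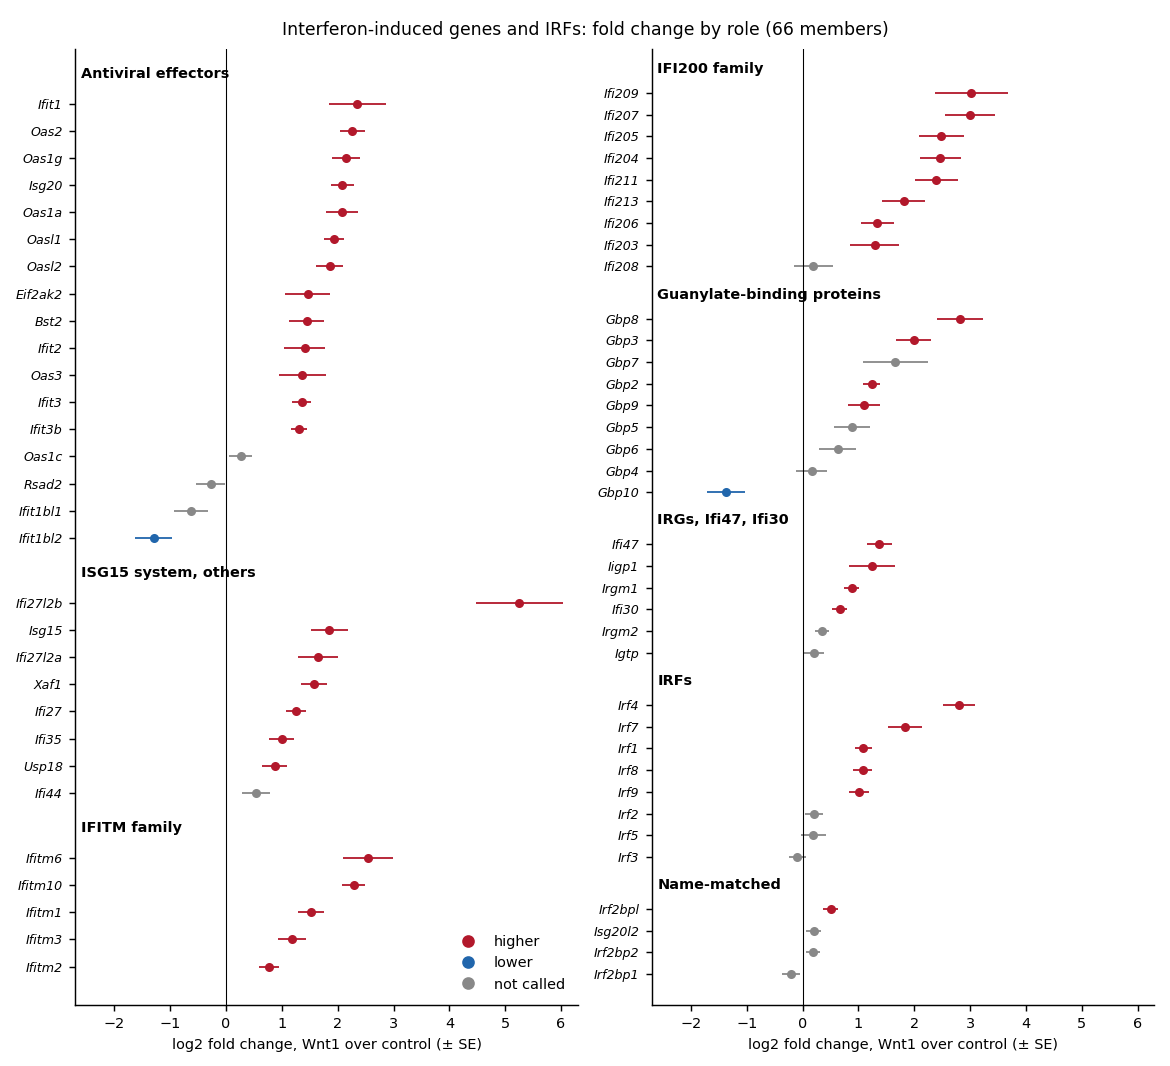
Log2 fold change of 66 tested members, Wnt1 over control, grouped by role. Points are edgeR estimates and bars are standard errors; red points are called higher (47), blue points lower (2) and grey points were not called (17). Most members of every interferon-induced group lie right of 0, with Ifit1bl2 and Gbp10 called on the left.

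The libraries held between 23585040 and 27218091 reads assigned to genes. Wnt1 itself had 0, 1 and 0 reads in Wnt1 replicates 1, 2 and 3 and none in the controls, so it does not check the labels. Of 8 markers of kidney epithelium 7 fell and none rose (median log2 fold change -1.10), with summed FPKM of 2046 to 3229 in Wnt1 and 5355 to 5909.6 in control libraries, so the labelled tissue was present in all. In the same libraries all 11 macrophage markers rose (median 3.12), with summed FPKM of 1523 to 1889.6 in Wnt1 against 117 to 144 in control. Of 14 T and NK cell markers 12 rose (summed FPKM 21.3 to 30.8 against 7.17 to 8.03 in control), and of 10 dendritic and plasmacytoid markers 8 rose (79.3 to 111.7 against 24.1 to 33.1), a list that holds Bst2, itself a member. The neutrophil genes Mpo and Elane had no read in any Wnt1 library, and Ly6g had 1. In controls Mpo and Elane each had at least 1 read, but neither was tested at these counts. The 4 tested neutrophil markers rose (summed FPKM of the list 13.4 to 21.5 in Wnt1 against 0.556 to 0.967 in control). Of 5 tested B and plasma cell markers 4 rose (30.2 to 43.5 against 5.47 to 6.98), and of 8 fibroblast and mural markers 7 rose (547 to 811 against 115 to 144). Of 7 endothelial markers 5 fell and none rose (189 to 269 in Wnt1 against 232 to 286 in control). The part of these cell types in the member changes was not tested, and in whole kidney more cells of a type and more RNA per cell cannot be told apart. Replicate 3 of each group stood apart from the other 4 libraries on the second principal component (14.7% of variance), which touches many members, as given below.

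Scaling decides how far all genes shift together. Values are on the TMM scale, where the median of all tested genes was 0.05; library totals moved that median to 0.47, the median of type I-induced members from 1.44 to 1.86 and that of gamma-induced members from 1.07 to 1.49, which relative to all genes is 1.38 and 1.02. With library totals 59 members were called higher and 0 lower, where 44.0% of all tested genes were called higher and 8.92% lower. In limma on FPKM 52 of 57 tested members were called higher, where 41.1% of genes were called higher on log2(FPKM + 1) and 41.0% on log2(FPKM + 0.1). Expression levels below are given as CPM, counts scaled to library size by TMM, for a gene across libraries, and as FPKM, which takes transcript length into account, where genes are set beside each other.

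Among the antiviral effectors of the type I group, 13 of 17 tested rose, 1 fell and 3 were not called, with a median log2 fold change of 1.44. Beside this and each later role list, the shares over all tested genes were 22.4% higher and 18.7% lower. Ifit proteins bind viral RNA. Ifit3 measured 89.7, 108 and 121 CPM in Wnt1 replicates 1, 2 and 3, against 35.2, 41.2 and 47.8 CPM in the controls, a log2 fold change of 1.36 ± 0.17 (SE; adjusted p = 0.000574). Ifit1 measured 22.5, 28.3 and 9.9 CPM in Wnt1 libraries, against 4.41, 5.76 and 1.69 CPM in controls (2.35 ± 0.51; adjusted p = 0.00806). The groups did not overlap for either gene, but Ifit3 was highest and Ifit1 lowest in replicate 3 of both groups. Ifit2 measured 33.3, 43.2 and 15.5 CPM in Wnt1 libraries, against 12.4, 14 and 8.35 CPM in controls (1.41 ± 0.37), and its call was lost without any 1 library other than Wnt1 replicate 3. Ifit3b was called higher too, with 28.2, 32 and 26.8 CPM in Wnt1 libraries, against 11.6, 12.1 and 11.5 CPM in controls. Ifit1bl2, an Ifit1-like gene of low level, fell (-1.30 ± 0.33; adjusted p = 0.0148), with 0.919, 0.779 and 0.645 CPM in Wnt1 and 2.25, 2.26 and 1.28 CPM in controls. That call was lost without Wnt1 replicate 2, without control replicate 1 or 2 and with library totals, and its neighbour Ifit1bl1 was not called (-0.63 ± 0.31). All 6 Ifit genes lie on GRCm38 chromosome 19, 34550694 to 34650009, so the same 99.3 kb held genes called in opposite directions.

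The oligoadenylate synthetases sense double-stranded RNA, and those active as enzymes switch on RNase L, which cuts RNA. Oas1a measured 23.3, 25.0 and 36.4 CPM in Wnt1 libraries, against 4.92, 5.72 and 9.45 CPM in controls (2.08 ± 0.29; adjusted p = 0.00107). Oas2 measured 9.03, 10.1 and 13.6 CPM in Wnt1 libraries, against 2.02, 2.22 and 2.56 CPM in controls (2.26 ± 0.23). Oas1g (2.15 ± 0.25) and Oas3 (1.36 ± 0.42) rose with them, but the Oas3 call was lost without Wnt1 replicate 2 or 3 or control replicate 1 or 2. Oas1c, from the same cluster on chromosome 5 (120730333 to 120921652), was measured at 5.10, 4.60 and 6.11 CPM in Wnt1 and 4.41, 3.77 and 4.98 CPM in controls and was not called (0.26 ± 0.21). The synthetase-like genes lie apart on the same chromosome (114896936 to 114937915) and both rose. Oasl1 measured 17.5, 19.5 and 24.5 CPM in Wnt1 libraries, against 4.87, 5.72 and 5.48 CPM in controls (1.94 ± 0.18). Oasl2 measured 51.1, 64.2 and 71.3 CPM in Wnt1 libraries, against 13.8, 14.1 and 23.5 CPM in controls (1.86 ± 0.24). No library of either group crossed into the other for the synthetase and synthetase-like genes called higher, whereas the groups overlapped for Oas1c. The groups were also apart for 53.5% of all tested genes. Oas1a and Oas1g are near-identical in part, as are Ifit3 and Ifit3b, so their separate counts are uncertain.

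The remaining effectors did not move as 1 group. Bst2, which encodes tetherin and holds budding virus at the cell surface, measured 40.1, 32.4 and 61.5 CPM in Wnt1 libraries, against 12.6, 13.7 and 23.0 CPM in controls (1.44 ± 0.31; adjusted p = 0.00795). Isg20, an RNA exonuclease, measured 6.05, 6.69 and 6.87 CPM in Wnt1 libraries, against 1.52, 1.37 and 1.73 CPM in controls (2.08 ± 0.20). Eif2ak2, the double-stranded RNA kinase PKR, measured 40.6, 45.6 and 16 CPM in Wnt1 libraries, against 13.9, 15.2 and 8.03 CPM in controls (1.46 ± 0.41). Both were called higher, and the Eif2ak2 call was lost without any 1 library other than Wnt1 replicate 3. Rsad2, which encodes the antiviral enzyme viperin, was an exception. It measured 18.4, 24.5 and 12.8 CPM in Wnt1 libraries and 27.3, 22.2 and 18 CPM in controls, and the groups overlapped (-0.28 ± 0.26; adjusted p = 0.432). The sign of that difference turned with library totals (0.15) and on the FPKM scale, and it was not called in any setting (adjusted p from 0.0666 to 0.943). Cmpk2, a nucleotide kinase gene that lies beside Rsad2 on chromosome 12, singled out after its values were seen, was likewise not called (-0.16 ± 0.14).

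**Figure D2:**
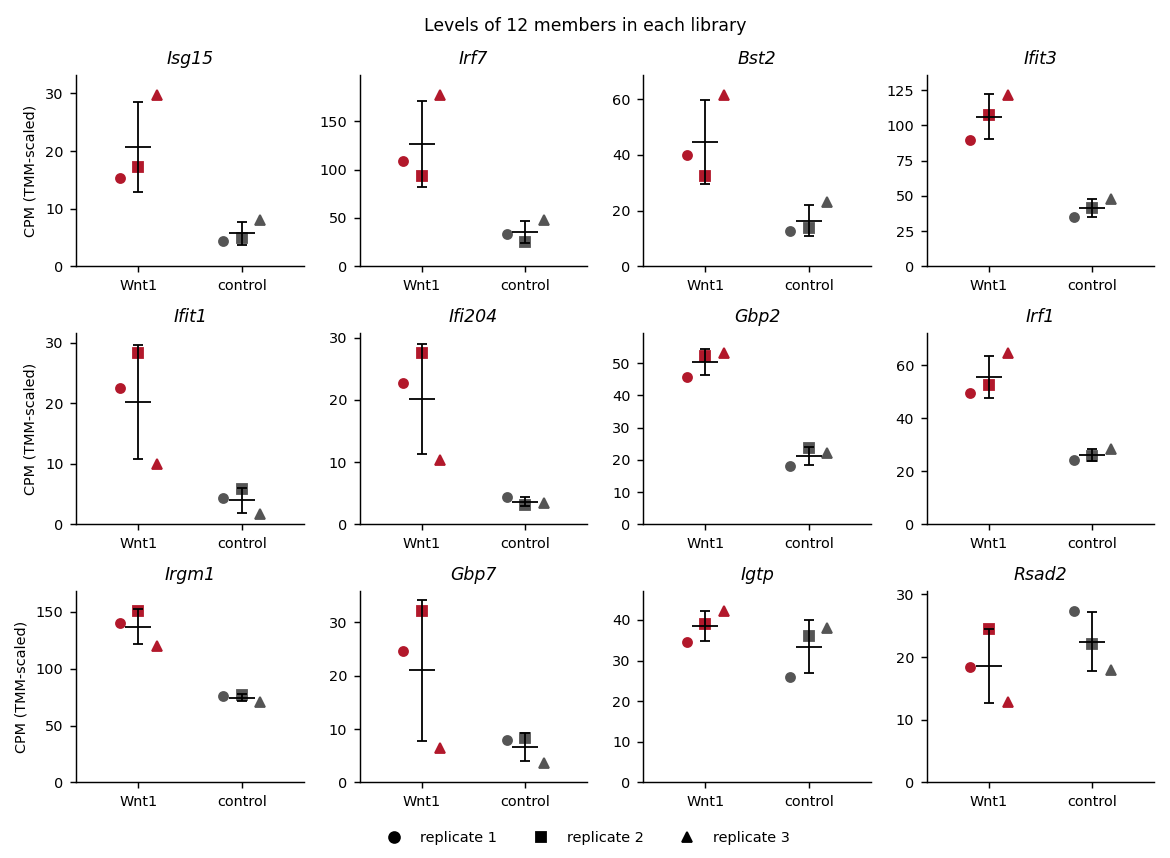
CPM (linear axes from 0) of 12 members in each library, Wnt1 left and control right; symbols mark replicates 1, 2 and 3, and the black bar is the mean ± SD of 3 libraries. Isg15, Irf7, Bst2 and Ifit3 peak in replicate 3 of each group while Ifit1 and Gbp7 are lowest there, and Igtp and Rsad2 overlap between the groups.

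In the group made up of the ISG15 system and other type I-induced genes, 7 of 8 tested members rose and none fell (median 1.41). Of the 7 that passed the filter in controls too, 6 rose (median 1.25). Isg15, a ubiquitin-like protein joined to other proteins, measured 15.3, 17.3 and 29.7 CPM in Wnt1 libraries, against 4.32, 4.87 and 8.03 CPM in controls (1.85 ± 0.34; adjusted p = 0.00355). Usp18, the protease that removes it and restrains the type I receptor, measured 11.8, 12.1 and 16 CPM in Wnt1 libraries, against 6.25, 6.25 and 9.31 CPM in controls (0.87 ± 0.22; adjusted p = 0.015). The difference between their changes was not tested. Xaf1, which favours cell death, measured 14.6, 14.3 and 16.8 CPM in Wnt1 libraries, against 3.68, 4.79 and 6.8 CPM in controls (1.58 ± 0.24), and Ifi35 rose by 0.99 ± 0.22. In each of these genes every Wnt1 library lay above every control. The mitochondrial and nuclear membrane genes of the Ifi27 cluster on chromosome 12 all rose. Ifi27 measured 96.2, 91.3 and 131 CPM in Wnt1 libraries, against 50.7, 38.2 and 44.8 CPM in controls (1.25 ± 0.18). Ifi27l2a measured 34.2, 30.1 and 55.9 CPM in Wnt1 libraries, against 10.1, 8.95 and 19.4 CPM in controls (1.64 ± 0.36). Ifi27l2b had 19, 26 and 20 reads in Wnt1 libraries and 1, 0 and 0 in controls, a ratio of 49.97 whose exact 95% interval for counting error alone ran from 8.66 to 2004. Ifi44 measured 14.1, 18.1 and 11 CPM in Wnt1 libraries, against 11.8, 10.9 and 7.21 CPM in controls, overlapped between the groups and was not called (0.53 ± 0.25; adjusted p = 0.132).

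IFITM proteins sit in membranes, and some of them hinder viral entry. All 5 tested members rose (median 1.53), including the 4 that passed the filter in controls too (median 1.35). Ifitm2 and Ifitm3 were the most abundant of all 77 members, at 235 ± 34.0 and 195 ± 48.3 FPKM in Wnt1 libraries and 103 ± 14.7 and 64.5 ± 15.3 FPKM in controls (SD, n = 3). Ifitm2 measured 114, 128 and 158 CPM in Wnt1 libraries, against 83.6, 65.3 and 86 CPM in controls (0.77 ± 0.17). Ifitm3 measured 91.6, 102 and 151 CPM in Wnt1 libraries, against 47, 40.1 and 64.9 CPM in controls (1.18 ± 0.25). Ifitm1 measured 30, 23 and 39.4 CPM in Wnt1 libraries, against 11, 8.6 and 12.5 CPM in controls (1.53 ± 0.23). In all 3 the groups were apart and replicate 3 was the highest of its group. Ifitm10 (2.28 ± 0.21) and Ifitm6 (2.54 ± 0.44) were low in abundance and rose, with Ifitm6 at 26, 21 and 16 reads in Wnt1 and 2, 4 and 2 reads in controls.

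The highest median change of any role was in the IFI200 genes, whose products bind DNA in the nucleus and cytosol. Of 9 tested, 8 rose and none fell, with a median log2 fold change of 2.39, or 1.81 over the 7 that passed the filter in controls too. Ifi204 measured 22.7, 27.5 and 10.3 CPM in Wnt1 libraries, against 4.46, 3.10 and 3.38 CPM in controls (2.47 ± 0.37; adjusted p = 0.00157). Ifi207 measured 15.3, 20.2 and 6.64 CPM in Wnt1 libraries, against 1.2, 2.22 and 1.87 CPM in controls (2.99 ± 0.45). In both genes every Wnt1 library lay above every control, and Wnt1 replicate 3 was the lowest of the Wnt1 libraries. Ifi209 measured 6.47, 9.28 and 2.66 CPM in Wnt1 libraries, against 0.598, 1.42 and 0.228 CPM in controls (3.02 ± 0.66, and 3.97 without control replicate 2). Ifi205 (2.48 ± 0.40) and Ifi211 (2.39 ± 0.38) rose, and Ifi208 was not called (0.19 ± 0.35). Ifi202b, below the filter, had 0, 1 and 1 reads in Wnt1 libraries and none in controls. The 11 genes share a stretch of chromosome 1, 173468485 to 174031810, and related sequence could let them share reads. Macrophages are known to express several of them, and the macrophage marker values are those given above.

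The guanylate-binding proteins, GTPases that attack the vacuoles and membranes of intracellular microbes, were split. Of 9 tested, 4 rose, 1 fell and 4 were not called, with a median of 1.10. Gbp8 passed the filter through the Wnt1 libraries alone, and of the other 8 tested 3 rose and 1 fell (median 0.99). Gbp2 measured 45.7, 52.1 and 53.1 CPM in Wnt1 libraries, against 18.3, 23.7 and 22.0 CPM in controls (1.24 ± 0.15; adjusted p = 0.000456). Gbp7 measured 24.7, 32.1 and 6.37 CPM in Wnt1 libraries, against 8, 8.37 and 3.56 CPM in controls (1.66 ± 0.58; adjusted p = 0.0516). Gbp2 was tight within groups, whereas Gbp7 was lower in replicate 3 of each group, and the groups overlapped. With both libraries numbered 3 left out Gbp7 was called at 1.79 (adjusted p = 5.81e-05; 2.39e-05 to 0.172 over the settings). Gbp3 measured 40.8, 47.5 and 21.6 CPM in Wnt1 libraries, against 9.52, 11.3 and 6.94 CPM in controls (1.99 ± 0.32) and rose. Gbp8 measured 2.03, 2.87 and 1.59 CPM in Wnt1 libraries, against 0.276, 0.443 and 0.183 CPM in controls (2.82 ± 0.41) and rose. Gbp9 rose by 1.10 ± 0.29, but that call was lost without any 1 library other than Wnt1 replicate 3. Gbp5 measured 9.03, 12.6 and 5.16 CPM in Wnt1 libraries, against 4.32, 5.67 and 4.47 CPM in controls and was not called (0.89 ± 0.32; adjusted p = 0.0571). Gbp10, of low abundance, fell (-1.37 ± 0.34; adjusted p = 0.0136), with 1.24, 1.52 and 0.986 CPM in Wnt1 and 2.48, 4.74 and 2.51 CPM in controls, and was not called without control replicate 2 or with library totals. On chromosome 3 (142493978 to 142638008) the 4 tested Gbp genes lay between 0.89 and 1.99, and on chromosome 5 (105014150 to 105293698) the 5 tested lay between -1.37 and 2.82. In the annotation Gbp4, Gbp8 and Gbp9 overlap on 1 strand, and Gbp6 and Gbp10 are close copies, so their separate counts are uncertain.

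The immunity-related GTPases guard against intracellular parasites, the Irgm proteins by holding their partners inactive on the cell's own membranes. Of 6 members in their group 4 rose and none fell (median 0.77). Irgm1 measured 141, 151 and 120 CPM in Wnt1 libraries, against 76.0, 76.8 and 70.8 CPM in controls (0.88 ± 0.13; adjusted p = 0.0013). Igtp, also known as Irgm3, measured 34.7, 38.9 and 42.1 CPM in Wnt1 libraries and 26.1, 36.1 and 38.1 CPM in controls, with overlap (0.21 ± 0.17; adjusted p = 0.38). Irgm2 was not called (0.34 ± 0.13; adjusted p = 0.0673), although its lowest Wnt1 library lay above its highest control. Igtp and Irgm2 overlap on 1 strand of chromosome 11, so reads could be assigned to either. Ifi47 measured 20.2, 23.5 and 31.9 CPM in Wnt1 libraries, against 7.59, 10.8 and 10.9 CPM in controls (1.37 ± 0.23) and rose. Iigp1 measured 26.8, 35 and 12.5 CPM in Wnt1 libraries, against 10.8, 14.1 and 6.57 CPM in controls, with overlap, and rose (1.24 ± 0.41; adjusted p = 0.0433), a call lost without any 1 library other than Wnt1 replicate 3 and with no filter. Ifi30, a lysosomal thiol reductase of antigen processing, measured 75.7, 80 and 89.9 CPM in Wnt1 libraries, against 46.2, 52.7 and 55.8 CPM in controls (0.67 ± 0.13) and rose.

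Taken by class, 22 of 27 tested type I-induced members rose and 1 fell, and 10 of 17 tested gamma-induced members rose and 1 fell. Their median log2 fold changes were 1.44 and 1.07, which differ by 0.37. Of all tested genes 22.4% rose and 18.7% fell. Over members that passed the filter in controls too, 21 of 26 type I-induced members rose and 1 fell (median 1.42). On the same basis 9 of 16 gamma-induced members rose and 1 fell (median 0.98). The difference between the classes was not tested, since members of a class are not replicates. It kept its sign in each of the 15 other settings (0.35 to 0.77, the largest without control replicate 3, where the type I median was 1.84). Library by library, the type I-induced median relative to the mean control was 1.26, 1.38 and 1.35 in Wnt1 replicates 1, 2 and 3, and the gamma-induced median was 0.91, 1.06 and 0.37. The gamma-induced class was thus lowest in Wnt1 replicate 3. Without that library 14 gamma-induced members were called higher, where calls over all tested genes also rose, to 28.5% higher and 27.2% lower. The count was 14 also without both libraries numbered 3, where 32.0% of all tested genes were called higher and 30.4% lower. With a covariate for the libraries numbered 3 the shares were 33.6% and 29.6%. Without control replicate 1, 41 members were called higher, where 19.6% of all tested genes were.

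**Figure D3:**
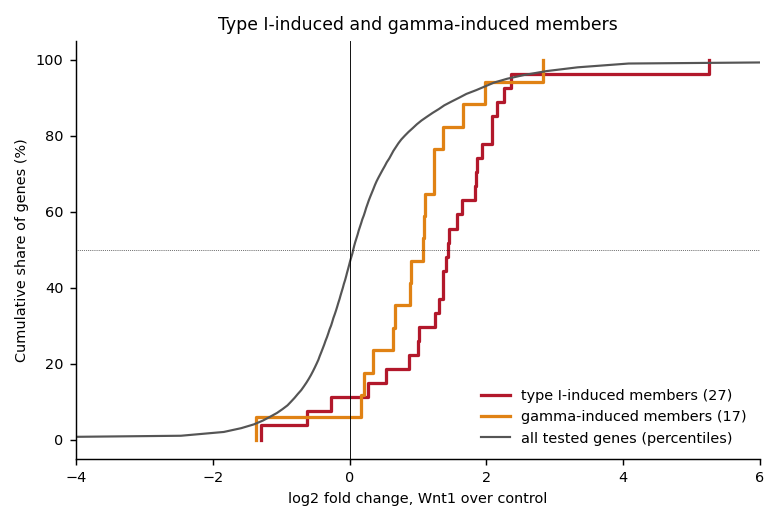
Cumulative share of tested genes (%) by log2 fold change, Wnt1 over control, for 27 type I-induced members (red), 17 gamma-induced members (orange) and all tested genes (grey percentiles). The class medians, where the curves cross the dotted line at 50%, are 1.44 and 1.07, against 0.05 for all tested genes. The classes include Ifi27l2b and Gbp8, which passed the filter through the Wnt1 libraries alone.

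Among 8 IRFs, transcription factors that induce interferons or answer them, 5 rose and 3 were not called. Irf7, which amplifies type I interferon production, measured 109, 93.1 and 177 CPM in Wnt1 libraries, against 33.5, 25.5 and 47.7 CPM in controls (1.83 ± 0.31; adjusted p = 0.00261). Irf9, the DNA-binding part of the type I complex, measured 56.7, 63.8 and 78.6 CPM in Wnt1 libraries, against 32.8, 27.8 and 38.3 CPM in controls (1.01 ± 0.18; adjusted p = 0.0028). Irf1, the gamma-induced activator, measured 49.4, 52.6 and 64.5 CPM in Wnt1 libraries, against 24.2, 25.6 and 28.5 CPM in controls (1.09 ± 0.15; adjusted p = 0.000908). In all 3 genes the groups were apart and replicate 3 was the highest of its group.

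The myeloid and lymphoid factors Irf8 and Irf4 rose too. Irf8 measured 39.9, 45.0 and 49.5 CPM in Wnt1 libraries, against 17.9, 26.2 and 19.8 CPM in controls (1.07 ± 0.18; adjusted p = 0.00211). Irf4 measured 5.01, 6.23 and 4.97 CPM in Wnt1 libraries, against 0.736, 0.532 and 1.05 CPM in controls (2.80 ± 0.29; adjusted p = 0.000261), the largest fitted change among the IRFs. Macrophage and lymphocyte markers moved in the same libraries, as given above. Irf3, the factor that sensors activate by phosphorylation, measured 46.3, 47.2 and 62.1 CPM in Wnt1 libraries and 53.1, 54.1 and 58.8 CPM in controls, and was not called (-0.09 ± 0.15); its sign turned with library totals (0.32), on the FPKM scale and without control replicate 3 (0.033). Irf2 measured 20.8, 26.8 and 20.5 CPM in Wnt1 libraries, against 19, 21.3 and 18.6 CPM in controls (0.21 ± 0.16). Irf5 measured 22.3, 25 and 28.5 CPM in Wnt1 libraries, against 15.2, 23.3 and 27.9 CPM in controls (0.19 ± 0.23). Neither was called, but with library totals, which moved the median of all genes to 0.47, they were called higher at 0.63 and 0.61.

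On the length-corrected FPKM scale the order of the IRFs differed between the groups. In Wnt1 libraries Irf7 was highest, at 75.5 ± 24.1 FPKM, followed by Irf3 (34.9 ± 4.94), Irf1 (34.1 ± 4.77) and Irf9 (31.1 ± 4.63), which lay within 1 SD of each other (SD, n = 3). In controls Irf3 was highest, at 28.4 ± 0.743 FPKM, and Irf7 (16.0 ± 5.06), Irf9 (11.5 ± 1.74) and Irf1 (11.4 ± 0.735) followed, all within the SD of Irf7. Irf4 was lowest in both, at 1.32 ± 0.215 FPKM in Wnt1 and 0.14 ± 0.0451 FPKM in control libraries. Of the 4 members listed here as matched by name alone, the IRF2-binding protein-like gene Irf2bpl rose (0.50 ± 0.13, edgeR adjusted p = 0.0172). It measured 96.7, 99.8 and 116 CPM in Wnt1 libraries, against 67.1, 75.8 and 77.9 CPM in controls. Irf2bp1 (-0.21 ± 0.16), Irf2bp2 (0.19 ± 0.12) and Isg20l2 (0.20 ± 0.13) were not called.

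**Figure D4:**
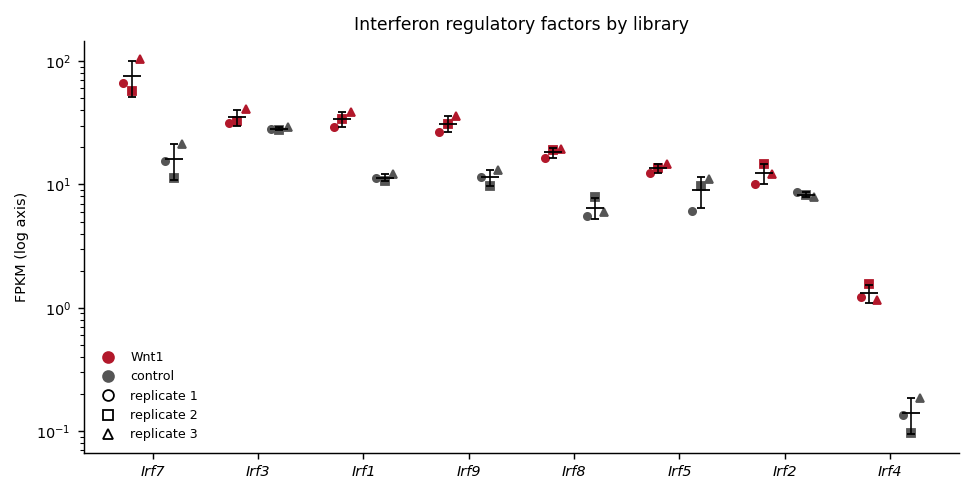
FPKM (log axis) of 8 IRFs in each library, Wnt1 in red on the left of each pair and control in grey on the right, ordered by mean in Wnt1 libraries. Black bars are mean ± SD of 3 libraries. On this scale, which is not TMM-scaled, all 8 are apart between the groups. On the CPM scale Irf3, Irf2 and Irf5 overlapped, and they were not called. Irf7 averaged 75.5 FPKM in Wnt1 and 16.0 FPKM in control libraries.

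The interferons themselves were scarcely detected. Of 21 ligand genes, 19 had no read in any Wnt1 library and 18 none in any control, and none passed the filter. Ifnb1 and all alpha genes had 0 reads in all 6 libraries, where 3 reads, the limit that a count of 0 allows, correspond to 0.0951 to 0.138 CPM. Ifng had 1, 3 and 1 reads in Wnt1 libraries and 1, 4 and 4 in controls. Ifnz, the gene of interferon zeta, had 8, 5 and 4 reads in Wnt1 libraries and 1, 1 and 1 in controls, and Ifne had 1 read, in control replicate 3. No ligand gene was tested at these counts, and interferon protein was not measured.

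Receptors for both routes were higher. Of 6 receptor genes 5 rose, and the gamma receptor chains Ifngr1 (1.38 ± 0.13; adjusted p = 0.000152) and Ifngr2 (1.31 ± 0.12; adjusted p = 0.000168) had larger fitted changes than the type I chains Ifnar1 (0.66 ± 0.11) and Ifnar2 (0.47 ± 0.15), a contrast that was not itself tested. Ifnlr1, of the lambda receptor, rose by 0.92 ± 0.27, and its shared partner Il10rb was not called (0.35 ± 0.13; adjusted p = 0.0643). Among kinases and STATs, Stat3 (1.17 ± 0.12) and Stat2 (1.00 ± 0.13) rose, while Jak1, Jak2 and Tyk2 were not called. The feedback inhibitors Socs3 (3.86 ± 0.19) and Socs1 (1.56 ± 0.31) rose, and the 4 other brakes were not called. Over all tested genes 22.4% rose and 18.7% fell.

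Sensors that feed interferon induction were mostly higher. Of 14, 10 rose and none fell, where 22.4% of all tested genes rose and 18.7% fell. Those that rose included Sting1 (2.93 ± 0.22), the adaptor of cytosolic DNA sensing, Tlr9 (2.38 ± 0.22), Ikbke (2.11 ± 0.21) and Ddx58, the RNA sensor RIG-I (1.31 ± 0.16). Of 26 other type I-induced genes 20 rose and none fell (median 1.28), with Epsti1 (2.01 ± 0.20) and Rtp4 (1.62 ± 0.17) among them, and of 19 tested other gamma-induced genes 15 rose and none fell (median 1.21), with Ciita (2.08 ± 0.16) and Cd74 (1.96 ± 0.18), genes of antigen presentation. Psmb8 (1.66 ± 0.18), of the immunoproteasome, and the complement inhibitor Serping1 (1.73 ± 0.23) rose with them. Some genes stand in more than 1 of these lists.

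Replicate 3 of each group departed from replicates 1 and 2 in a direction that went with transcript GC content and, less closely, with transcript length. Among the 67 tested members, 26 were lower in both libraries numbered 3 than in their group's replicates 1 and 2, 33 were higher in both, and 8 were mixed. The 26 had a median transcript GC content of 43.2% (38.4% to 46.8%) and included Ifit1, Ifit2, Eif2ak2, Rsad2, Ifi204, Gbp7 and Iigp1. The 33 had a median of 52.1% (45.7% to 63.6%) and included Isg15, Irf7, Bst2, Oas1a and Irf1. Across the 67 members the departure of replicate 3 correlated with GC content, with Pearson's r = 0.79 and Spearman's rho = 0.81 in Wnt1 and r = 0.64 and rho = 0.67 in control libraries. Over 14416 tested genes with a GC value, r was 0.70 and 0.55. With transcript length, Spearman's rho was -0.53 in Wnt1 and -0.46 in control libraries across the members, and -0.36 and -0.35 over those genes. GC content and length were not separated. These are correlations across genes of the same libraries, so the points are not independent. Of the 26 members 15 were called higher, with a median log2 fold change of 1.26, and of the 33 members 26 were, with a median of 1.25. No member called with all libraries lost its call without both libraries numbered 3.

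**Figure D5:**
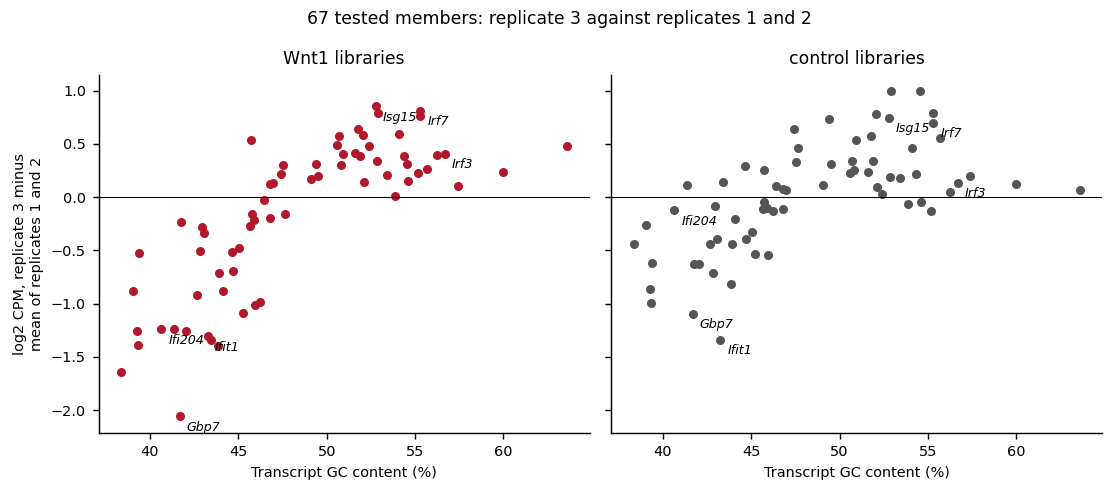
Departure of replicate 3 from the mean of replicates 1 and 2 (log2 CPM with 0.5 added) against transcript GC content (%) for the 67 tested members, in Wnt1 libraries (left) and control libraries (right). Members of low GC content such as Ifit1 and Gbp7 lie below 0 in both groups, and Isg15 and Irf7 lie above.

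The elements printed above were common in member promoters. In the 250 bases before a start, 30 of 62 members with a promoter in the table (48.4%) held the response element core on either strand, against 3.46% of 27025 genes, and 15 (24.2%) held the gamma-activated site core, against 8.13%. The response element core stood in 12 of 25 type I-induced and 8 of 12 gamma-induced members, and in 8 of 10 IFI200 genes. Of 28 tested members with the response element core 18 rose, with a median of 1.32, and of 26 without it 20 rose, with a median of 1.28. Rsad2, Oas1c and Igtp held the core and were not called, whereas Irf7, Oasl1 and Oasl2 rose without it in this window. A match is a description of letters, and 15 members had no promoter in the table.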

How the data were processed

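Kidney RNA was profiled in 6 libraries, 3 per group; groups come from the treatment label, and replicate numbers follow record order and pair nothing. Per the labels' protocols, poly(A) RNA was selected and sequenced on an Illumina NovaSeq. The build mm10 and the tools RSEM, StringTie 1.3.1, HISAT2, Bowtie2 2.2.8 and fastp 0.18.0 are named, per the submitters' processing notes. Neither the annotation nor the use of strand is given in the sources used here, so antisense reads cannot be told apart. The authors deposited an expected count (9.02% were not whole, within 1e-06, and all were rounded) and an FPKM value, per length and library total, for each gene and library. No molecular identifiers are mentioned, and intervals and floors therefore describe counting error alone.

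Rounded counts were filtered with filterByExpr, scaled by TMM and tested in edgeR 4.0.16 (R 4.3.3) by its quasi-likelihood test (robust, two-sided), with p-values adjusted by Benjamini-Hochberg over 14432 genes; log2 fold changes are Wnt1 over control, and each standard error comes from the F statistic. The script was tested on simulated counts. Alternatives were DESeq2 1.42.0, median-ratio factors, library totals, other filters, limma 3.58.1 on log2(FPKM + 1) and log2(FPKM + 0.1), and leaving out libraries. A covariate for the libraries numbered 3 was chosen after seeing the data. Members and lists were chosen with earlier results of these data known. Coordinates and GC content (longest coding transcript) come from GENCODE M21 on GRCm38, promoters from RefSeq. Values per library are given for a fixed set of members, and for the strongest and most abundant of each role. Some genes of these lists are counted in the totals but not reported here by name.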

Additional observations from a re-analysis of the deposited data

How the results depend on the processing

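Over the 15 settings other than that reported, the 37 members followed singly kept direction and side of the threshold in 503 comparisons, 29 became called and 16 lost a call. Irf3 and Rsad2, not called here, turned positive with library totals (0.32 and 0.15), on log2(FPKM + 1) (0.28 and 0.10) and on log2(FPKM + 0.1) (0.29 and 0.11), and Irf3 ranged from -0.24 without Wnt1 replicate 3 to 0.033 without control replicate 3. Library totals gave 6348 genes higher and 1288 lower, 0 members lower, and medians of 1.86 for type I-induced and 1.49 for gamma-induced members. On log2(FPKM + 1), 5144 genes were higher and 1238 lower, with 0 members lower. On log2(FPKM + 0.1), 5139 were higher and 1234 lower, with 0 members lower and medians of 1.86 and 1.49. Both FPKM settings required an FPKM of at least 1 in 3 libraries. Gbp10 and Ifit1bl2, the members called lower in the main setting, did not reach this and were untested there. With both libraries numbered 3 left out 4432 genes were lower, and with the covariate 4270; both gave 52 members higher. The cause of these shifts was not tested. Leaving out 1 library gave 41 to 51 members higher and 0 to 3 lower, 2681 to 4165 genes higher (18.4% to 28.5%) and 1797 to 3977 lower, with the most calls of each kind without Wnt1 replicate 3, and type I medians of 1.35 to 1.84. Eif2ak2, Gbp9, Ifi203, Ifit2 and Iigp1 each lost their call without any 1 library other than Wnt1 replicate 3. Oas3 lost it without Wnt1 replicate 2 or 3 or control replicate 1 or 2 (1.96 without control replicate 3), Ifit1bl2 without Wnt1 replicate 2 or control replicate 1 or 2, and Gbp10 without control replicate 2. Without Wnt1 replicate 3, Gbp5, Gbp6, Gbp7, Ifi44, Irgm2 and, as lower, Irf2bp1 were called. Ifi203 was also lost with median-ratio factors and, like Iigp1, with no filter. No paired analysis was possible because the replicate numbers follow record order and the sample titles of the groups share only 1 number.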
